A study of Mus musculus with 6 samples.

Results

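The 40 genes described here encode the enzymes and carriers that take glucose through glycolysis and the citric acid cycle, and they were chosen by symbol from the 21240 genes of the deposited count table. They are the glucose transporter gene Slc2a1, 10 genes of the hexose phase of glycolysis and 6 of its triose phase. Another 4 serve lactate formation and monocarboxylate transport, 4 are pyruvate dehydrogenase kinases (PDKs) and 3 are subunits of the pyruvate dehydrogenase complex (PDH). The remaining 12 are listed for the citric acid cycle, among them Idh2, which is NADP-dependent, and Mdh1, which is cytosolic. The RNA came from NMuMG, a mouse mammary gland epithelial cell line, and the study asked how transcription in these cells responds to TGFβ, the cytokine that drives them towards a mesenchymal shape. Cells were kept for 6 h in medium without serum or insulin and then received vehicle for 2 h, 5 ng/ml TGFβ1 for 2 h or 5 ng/ml TGFβ1 for 12 h, with 2 biological replicates in each of the 3 groups. No vehicle sample at 12 h was analysed here, so every difference between 12 h and vehicle or 2 h also sets a longer time without serum and insulin against a shorter one, and TGFβ and time cannot be told apart there. All samples are of 1 cell line, the labels do not say more of what separates the replicates, and vehicle is named in the labels both as HCl and as Tris-HCl, in each case with BSA.

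In glycolysis, glucose enters the cell through facilitative transporters and is trapped by hexokinase, and phosphofructokinase then sets the pace of its cleavage into trioses, which are oxidised to pyruvate. Pyruvate is either reduced to lactate and exported or enters mitochondria, where PDH turns it into the acetyl-CoA that feeds the citric acid cycle, and PDKs switch PDH off by phosphorylation. Many steps have isozymes encoded by separate genes that differ in regulation and tissue distribution, so that a cell can change which enzyme serves a step as well as how much of it is made.

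Libraries held 14705886 to 23786993 counts, and levels are given in CPM, the read count scaled to the depth of its library after correction by TMM factors. The 40 genes took 1.15% and 1.23% of all counts with vehicle, 1.12% and 1.30% at 2 h and 0.700% and 0.778% at 12 h. Among markers of the labelled cell type, Cdh1, Krt8 and Krt18 were abundant, whereas Epcam, Cldn3, Cldn7 and Esrp1 stayed under 1 CPM in every library. The summed level of the 8 epithelial markers was 3295 to 3934 CPM in vehicle libraries, 4685 to 4778 after 2 h and 9877 to 9900.0 after 12 h, mostly from Krt8 and Krt18. Summed markers of fibroblasts, with Col1a1 as the main one, were 3.57 to 5.24 CPM in vehicle libraries, 8.97 to 9.66 after 2 h and 13.4 to 15.6 after 12 h. Those of immune cells stayed between 4.1 and 7.0 CPM, those of basal or myoepithelial cells between 2.93 and 12.2 CPM, and those of endothelial cells and adipocytes under 2 CPM in all libraries. The part of these shifts in the results below was not tested, and in bulk RNA fewer cells of a kind and less RNA per cell cannot be told apart.

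At 2 h of TGFβ1, 3 of the 37 members tested were called higher, and they serve glucose uptake, its trapping and the stimulation of phosphofructokinase. Hk2, the hexokinase of muscle and adipose tissue that responds to growth signals, rose most. Its level was 18.5 and 20.1 CPM in vehicle libraries, 184 and 142 CPM after 2 h and 168 and 156 CPM after 12 h. All 4 treated libraries lay far above both vehicle libraries, and the 2 h difference was 8.45-fold (edgeR quasi-likelihood test, log2FC of 3.08 ± 0.16 (SE), adjusted p = 0.0002). Pfkfb3, which makes the fructose 2,6-bisphosphate that activates phosphofructokinase, was at 9.12 and 10.6 CPM in vehicle libraries, 39.6 and 45.2 CPM after 2 h and 49.1 and 39.0 CPM after 12 h. Again no treated library reached down to the vehicle range, with a 2 h change of 4.29-fold (edgeR, log2FC of 2.10 ± 0.17 (SE), adjusted p = 0.000806). Slc2a1, the widely expressed glucose transporter GLUT1, was at 49.9 and 47.8 CPM in vehicle libraries, 75.6 and 78.0 CPM after 2 h and 71.4 and 71.8 CPM after 12 h. This was a smaller and tight rise, of 1.57-fold (edgeR, log2FC of 0.65 ± 0.09 (SE), adjusted p = 0.00603), and without vehicle replicate 2 its adjusted p was 0.0582.

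These 3 members are 8.11% of those tested, whereas 9.91% of all 11080 genes tested were called higher at 2 h. No member was called lower, against 5.25% of all genes. Eno2, the neuronal enolase, was the only member with an unadjusted p under 0.05 in the lower direction. Its log2FC was -0.86 ± 0.24 (SE), at an edgeR adjusted p of 0.0593. It was the 1 member called lower by limma-voom, by DESeq2, with total counts and with the replicate number as a block. Its adjusted p there ran from 0.00611 to 0.0498, and those fits called 5.53% to 12.7% of all genes lower. Without 2 h replicate 1 the 1 member called lower was Slc16a1, the monocarboxylate transporter MCT1, at an adjusted p of 0.022. Suclg1, a subunit of succinyl-CoA ligase in the citric acid cycle, was also called higher at 2 h by DESeq2 and without 2 h replicate 1. With that block Suclg1 and Mdh2, the mitochondrial malate dehydrogenase, both were, at edgeR adjusted p of 0.00826 and 0.0227. The median log2FC of the tested members was 0.04, beside -0.01 over all genes. Scaling by total counts in place of TMM left 3 members higher and 1 lower, but changed the split over all genes from 1098 higher and 582 lower to 854 and 974. In number the members called at 2 h were therefore close to the background. Hk2 and Pfkfb3 also passed a log2FC of 1, as did 4.23% of all genes in the higher direction and 2.01% in the lower one.

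Promoter windows of the 3 genes that rose at both times are set beside those of 3 that were lower at 12 h, because both kinds hold the core of the hypoxia response element. RefSeq gives 250 bases before to 50 after a transcription start on GRCm38.p6, and each window below matched the mm9 build exactly once, so that mm9 positions are given. Capitals mark ACGTG or GCGTG on either strand, and CACGTG, the palindromic E-box, contains the first of these on both. Each is written 5′ to 3′ on the strand of the gene, the window with the lowest coordinate where a gene has several, and the 6 genes were chosen after their values were seen.
Hk2 (chr6:82724399-82724698, minus strand): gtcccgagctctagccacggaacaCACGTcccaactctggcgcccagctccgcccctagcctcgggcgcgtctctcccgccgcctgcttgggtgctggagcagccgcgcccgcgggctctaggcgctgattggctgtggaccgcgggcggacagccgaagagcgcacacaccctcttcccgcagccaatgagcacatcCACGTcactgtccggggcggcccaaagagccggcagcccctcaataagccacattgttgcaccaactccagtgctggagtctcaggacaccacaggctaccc
Slc2a1 (chr4:118781100-118781399, plus strand): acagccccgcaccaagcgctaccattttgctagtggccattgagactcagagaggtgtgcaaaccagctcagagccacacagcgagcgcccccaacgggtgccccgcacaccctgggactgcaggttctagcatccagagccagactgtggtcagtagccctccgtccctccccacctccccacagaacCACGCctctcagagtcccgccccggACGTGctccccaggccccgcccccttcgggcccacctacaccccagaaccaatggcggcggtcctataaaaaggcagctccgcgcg
Pfkfb3 (chr2:11423668-11423967, minus strand): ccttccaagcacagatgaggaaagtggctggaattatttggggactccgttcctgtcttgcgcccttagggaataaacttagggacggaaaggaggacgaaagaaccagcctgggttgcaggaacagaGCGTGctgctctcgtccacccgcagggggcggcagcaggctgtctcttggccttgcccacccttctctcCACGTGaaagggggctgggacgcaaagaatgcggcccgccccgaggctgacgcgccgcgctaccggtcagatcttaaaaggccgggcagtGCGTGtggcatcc
Ldha (chr7:54100924-54101223, plus strand): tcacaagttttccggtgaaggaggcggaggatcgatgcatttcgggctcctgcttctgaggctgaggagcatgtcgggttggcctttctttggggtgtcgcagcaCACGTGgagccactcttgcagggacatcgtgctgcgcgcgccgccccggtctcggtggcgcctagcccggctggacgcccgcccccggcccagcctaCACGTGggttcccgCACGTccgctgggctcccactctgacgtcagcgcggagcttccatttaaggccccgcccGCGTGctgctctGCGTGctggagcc
Pdk1 (chr2:71711031-71711330, plus strand): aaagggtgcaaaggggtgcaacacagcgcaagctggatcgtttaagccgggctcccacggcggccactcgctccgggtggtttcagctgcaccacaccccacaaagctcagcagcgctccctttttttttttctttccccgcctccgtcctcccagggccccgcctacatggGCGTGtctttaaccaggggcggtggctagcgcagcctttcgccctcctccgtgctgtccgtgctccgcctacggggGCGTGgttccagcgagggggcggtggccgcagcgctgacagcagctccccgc
Aldoc (chr11:78136325-78136624, plus strand): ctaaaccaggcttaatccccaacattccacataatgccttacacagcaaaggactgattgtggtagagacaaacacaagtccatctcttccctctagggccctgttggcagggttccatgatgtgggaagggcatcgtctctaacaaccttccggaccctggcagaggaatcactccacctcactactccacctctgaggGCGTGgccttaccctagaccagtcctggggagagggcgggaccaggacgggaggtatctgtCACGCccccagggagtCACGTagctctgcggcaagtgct
The core occurred 2 times in the window of Hk2, 2 times in Slc2a1, 4 times in Pfkfb3, 7 times in Ldha, 2 times in Pdk1 and 3 times in Aldoc, with both strands counted. Of the 58 promoter windows that RefSeq gives for 39 of the members, 77.6% held it, beside 43.8% of all 32851 windows. It was in all 6 windows of members higher at 12 h, in 73.3% of the 30 windows of members lower at 12 h and in 73.7% of the 19 windows of members tested but not called. The SMAD box CAGAC was in 37.9% of the members' windows and 49.6% of all windows. The AP-1 motif TGANTCA was in 1.72% and 7.81%, and the E-box CACGTG in 13.8% and 7.15%. Windows of 1 gene can overlap, and a match is a match of letters, not a bound site.

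At 12 h of TGFβ1 many members of glycolysis, lactate formation and PDH control were lower than with vehicle, while Hk2, Pfkfb3 and Slc2a1 were still higher. Of the 37 tested members 20 were called lower, which is 54.1% beside 21.5% of all genes, and 5 were called higher, 13.5% beside 21.8%. The median log2FC was -0.63 over the tested members and 0.02 over all genes. The summed level of all 40 members was 11022 and 11522 CPM in vehicle libraries, 11617 and 13054 after 2 h and 7245 and 8044 after 12 h. Past a log2FC of 1, 8 members were lower (11.6% of all genes) and 3 higher (8.03%). The plot of log2FC in pathway order shows called falls in every stretch of the pathway from the hexose phase to the citric acid cycle.

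**Figure D1:**
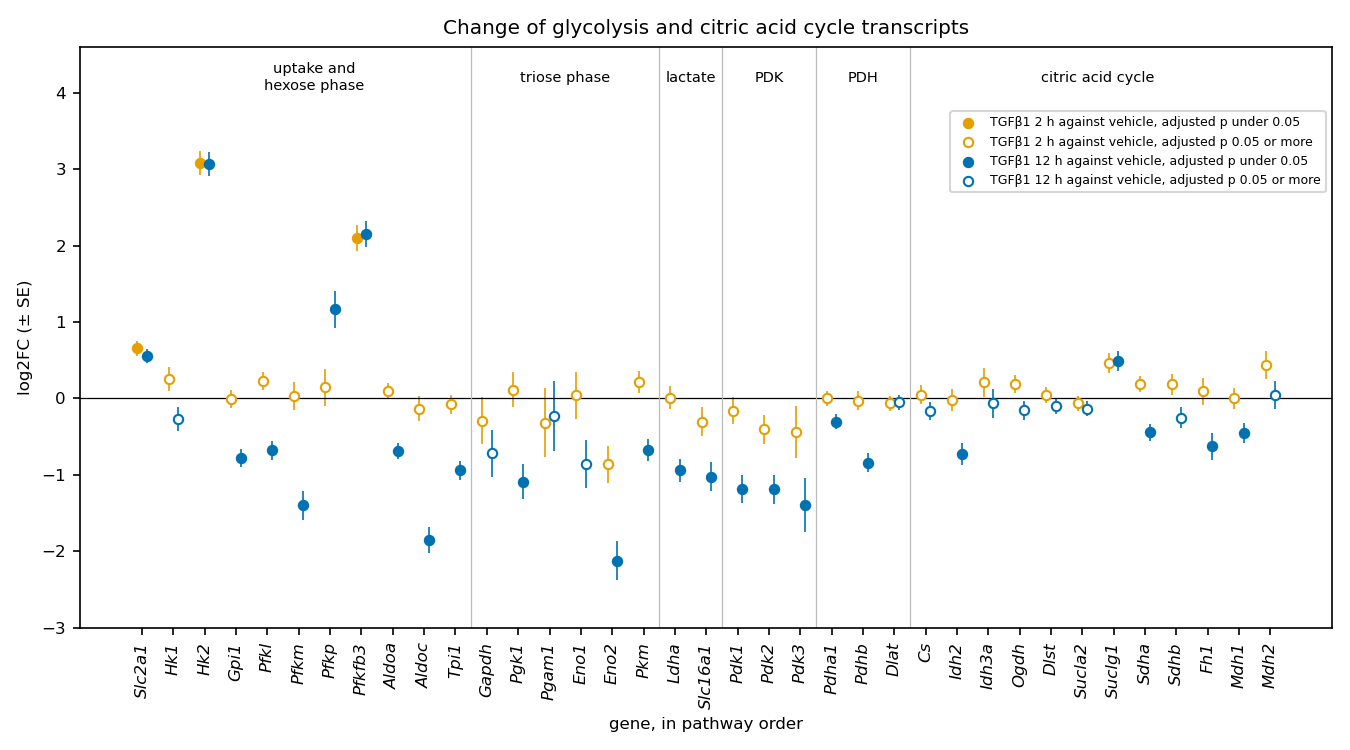
The log2FC of the 37 tested members against vehicle at 2 h (orange) and 12 h (blue), in pathway order, with SE bars from edgeR's quasi-likelihood fit of 2 libraries a group and filled points for an adjusted p under 0.05. At 2 h the filled points are Slc2a1, Hk2 and Pfkfb3, and at 12 h 20 filled points lie below 0 and 5 above it.

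These 12 h counts, and the shares of all genes called, changed when single libraries were left out. Without 12 h replicate 1, 13 members were lower, beside 13.5% of all genes. Without vehicle replicate 1, 12 h replicate 1 or 12 h replicate 2, 3 were higher, beside 11.6% to 14.3% of all genes. With total counts in place of TMM, 21 members were lower and 4 higher, and all calls went from 2414 higher and 2385 lower to 1831 and 3045.

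In the hexose phase 6 of 10 genes were lower at 12 h and 3 higher, beside 21.5% and 21.8% of all genes, and the isozymes of phosphofructokinase moved in opposite directions. Hk2 remained 8.40-fold above vehicle (edgeR, log2FC of 3.07 ± 0.16 (SE), adjusted p = 4.95e-05), whereas Hk1, the hexokinase most tissues express, was at 195 and 250.4 CPM in vehicle libraries, 239.6 and 292 CPM after 2 h and 176 and 193 CPM after 12 h. Both 12 h libraries of Hk1 lay below those with vehicle, but the difference missed the threshold (edgeR, log2FC of -0.27 ± 0.16 (SE), adjusted p = 0.21). Its log2FC ran from -0.45 to -0.09 over the alternatives, with adjusted p of 0.0423, with the replicate number as a block, to 0.748, without vehicle replicate 2. Of the phosphofructokinases, Pfkm, the muscle isozyme, was at 275 and 347 CPM in vehicle libraries, 283 and 352 CPM after 2 h and 103 and 133 CPM after 12 h. It fell 2.64-fold (edgeR, log2FC of -1.40 ± 0.19 (SE), adjusted p = 0.0015), while the 2 h libraries overlapped those with vehicle. Pfkl, the liver isozyme, was at 296 and 257 CPM in vehicle libraries, 309 and 337 CPM after 2 h and 163 and 182 CPM after 12 h. Its fall at 12 h was smaller (edgeR, log2FC of -0.68 ± 0.12 (SE), adjusted p = 0.00454). Pfkp, the platelet isozyme, was the counterpart, at 25.9 and 34.6 CPM in vehicle libraries, 25.7 and 41.3 CPM after 2 h and 66.8 and 68.8 CPM after 12 h. Its 2 h libraries overlapped those with vehicle, and it was 2.24-fold higher at 12 h (edgeR, log2FC of 1.16 ± 0.24 (SE), adjusted p = 0.00869). That call was lost without vehicle replicate 1, 12 h replicate 1 or 12 h replicate 2, with adjusted p of 0.0522, 0.0528 and 0.0586. Pfkfb3 stayed 4.46-fold above vehicle (edgeR, log2FC of 2.16 ± 0.17 (SE), adjusted p = 0.000191).

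Both aldolases among the members, which cleave fructose 1,6-bisphosphate, fell at 12 h. Aldoa, the ubiquitous form, was at 1654 and 1646 CPM in vehicle libraries, 1763 and 1773 CPM after 2 h and 964 and 1076 CPM after 12 h. The fall was 1.62-fold, with both 12 h libraries well below the others (edgeR, log2FC of -0.69 ± 0.11 (SE), adjusted p = 0.00243). Aldoc, the brain-type form, was at 41.1 and 32.2 CPM in vehicle libraries, 34.9 and 31.9 CPM after 2 h and 9.45 and 10.9 CPM after 12 h. It fell 3.61-fold and was the member with the lowest adjusted p among those that fell (edgeR, log2FC of -1.85 ± 0.17 (SE), adjusted p = 0.000308). Gpi1, which interconverts glucose and fructose 6-phosphate, and Tpi1, which interconverts the trioses, changed by -0.78 and -0.94 on the log2 scale (edgeR adjusted p = 0.00263 and 0.00148). Slc2a1 upstream of all of them was 1.47-fold above vehicle (edgeR, log2FC of 0.55 ± 0.09 (SE), adjusted p = 0.0038).

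**Figure D2:**
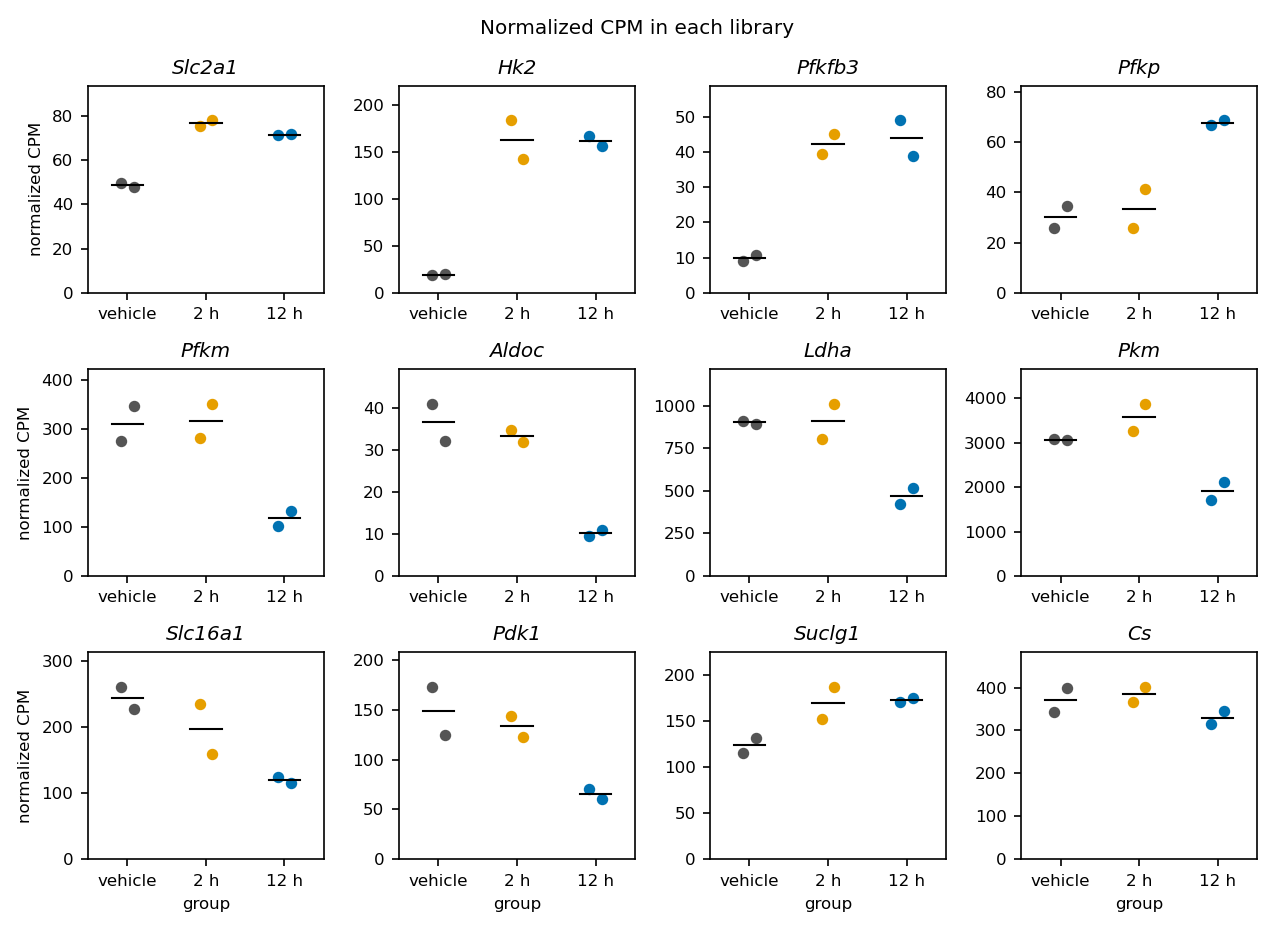
Normalized CPM of 12 members in each library, with a point per library, a bar at the mean of the 2 libraries of a group and axes that start at 0. Hk2, Pfkfb3 and Slc2a1 are up at 2 h and 12 h, Pfkp is highest at 12 h, and Pfkm, Aldoc, Ldha, Pkm, Slc16a1 and Pdk1 lie lowest in both 12 h libraries.

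In the triose phase 3 of 6 genes were called lower at 12 h and none higher, beside 21.5% and 21.8% of all genes. Eno2 had the lowest log2FC of the tested members, with levels of 9.65 and 12.6 CPM in vehicle libraries, 5.71 and 6.50 CPM after 2 h and 2.13 and 2.98 CPM after 12 h. The libraries formed 3 levels without overlap, in the order vehicle, 2 h and 12 h, and at 12 h the transcript was 4.36-fold below vehicle (edgeR, log2FC of -2.12 ± 0.26 (SE), adjusted p = 0.000946). Pgk1, the first enzyme of glycolysis that makes ATP, was at 43.7 and 66.2 CPM in vehicle libraries, 62.1 and 56.9 CPM after 2 h and 22.0 and 29.7 CPM after 12 h. It fell 2.13-fold (edgeR, log2FC of -1.09 ± 0.23 (SE), adjusted p = 0.00921), and without 12 h replicate 1 the adjusted p was 0.0736. Pkm, the pyruvate kinase of most tissues, was at 3076 and 3069 CPM in vehicle libraries, 3274 and 3883 CPM after 2 h and 1719 and 2114 CPM after 12 h. It had no overlap between 12 h and vehicle (edgeR, log2FC of -0.68 ± 0.15 (SE), adjusted p = 0.00962), and its call was likewise lost without 12 h replicate 1, at an adjusted p of 0.0688. Eno1, the ubiquitous enolase, was at 7.53 and 13.6 CPM in vehicle libraries, 9.56 and 12.1 CPM after 2 h and 5.09 and 6.52 CPM after 12 h, and Gapdh, the oxidising step of the triose phase, at 4.35 and 3.82 CPM in vehicle libraries, 3.34 and 3.33 CPM after 2 h and 3.13 and 1.80 CPM after 12 h. Both had their lowest libraries at 12 h without passing the test (edgeR adjusted p = 0.0664 and 0.106). With the replicate number as a block both passed it, at adjusted p of 0.00481 and 0.0367. Eno1 also passed with DESeq2, total counts, the 2 groups alone or without vehicle replicate 1 or either 2 h library, and Gapdh without 12 h replicate 1, at adjusted p of 0.0203 to 0.0492. For Pgam1, phosphoglycerate mutase, the groups overlapped.

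Of the 4 genes for lactate formation and transport, both that passed the filter fell, where 21.5% of all genes were lower. Ldha, the lactate dehydrogenase subunit that dominates in glycolytic cells, was at 913 and 895 CPM in vehicle libraries, 805 and 1013 CPM after 2 h and 423 and 517 CPM after 12 h. Both 12 h libraries were below all others, 1.92-fold below vehicle (edgeR, log2FC of -0.94 ± 0.15 (SE), adjusted p = 0.0032). Slc16a1, the monocarboxylate transporter MCT1, was at 261 and 228 CPM in vehicle libraries, 235 and 160.0 CPM after 2 h and 125 and 115 CPM after 12 h. It fell 2.03-fold (edgeR, log2FC of -1.02 ± 0.19 (SE), adjusted p = 0.00548), and without 12 h replicate 2 its adjusted p was 0.0596. Ldhb, the heart-type subunit, had 5 and 26 counts with vehicle, 12 and 17 at 2 h and 3 and 4 at 12 h. Slc16a3, the lactate exporter MCT4, had 0 counts in both vehicle libraries, 2 and 1 at 2 h and 4 and 2 at 12 h, and both genes stayed under the filter. In the fit without a filter neither passed the test at 12 h (edgeR adjusted p = 0.0533 for Ldhb, at a log2FC of -2.49 ± 0.86 (SE), and 0.145 for Slc16a3).

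At the entrance to the citric acid cycle, the 3 PDK genes tested all fell at 12 h past a log2FC of 1, beside 11.6% of all genes, and 2 of 3 PDH subunit genes fell by smaller amounts, beside 21.5% lower at any size. Pdk1, the kinase known as a hypoxia target, was at 173 and 125 CPM in vehicle libraries, 144 and 122 CPM after 2 h and 70.1 and 60.5 CPM after 12 h. Pdk2, the most widely expressed kinase of the family, was at 16.8 and 22.5 CPM in vehicle libraries, 14.6 and 15.1 CPM after 2 h and 8.01 and 9.18 CPM after 12 h. Pdk3 was at 6.24 and 8.34 CPM in vehicle libraries, 3.84 and 6.86 CPM after 2 h and 2.31 and 3.23 CPM after 12 h. In each of the 3 genes both 12 h libraries were below all others (edgeR adjusted p = 0.00254, 0.00305 and 0.0183), with folds below vehicle of 2.28, 2.29 and 2.63. The call of Pdk3 was lost without vehicle replicate 2 or either 12 h library, at adjusted p of 0.0888, 0.121 and 0.0579. Pdk4, the starvation-induced kinase, stayed under the filter, with 12 and 4 counts with vehicle, 15 and 26 at 2 h and 32 and 32 at 12 h. In the fit without a filter it was higher at 12 h than with vehicle (edgeR, log2FC of 1.63 ± 0.52 (SE), adjusted p = 0.0405), opposite to the other kinases. Pdhb, the beta subunit of the first PDH enzyme, had a log2FC of -0.84 ± 0.13 (SE) and Pdha1, the alpha subunit that PDKs phosphorylate, one of -0.30 ± 0.10 (SE) (edgeR adjusted p = 0.00252 and 0.0463). The Pdha1 call was lost without the filter on low counts, at an adjusted p of 0.0682, and without any of the vehicle or 12 h libraries, at adjusted p of 0.0925 to 0.228. Dlat, the acetyltransferase core, was at 133 and 140.3 CPM in vehicle libraries, 127 and 134 CPM after 2 h and 135 and 128 CPM after 12 h, with overlapping groups.

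Of the 12 genes listed for the citric acid cycle 4 were lower at 12 h and 1 higher, beside 21.5% and 21.8% of all genes. The median log2FC of the 12 was -0.16. Those that fell were Idh2, the mitochondrial NADP-dependent isocitrate dehydrogenase, at a log2FC of -0.73 ± 0.14 (SE), Fh1, fumarase, at -0.63 ± 0.17 (SE), Mdh1, the cytosolic malate dehydrogenase, at -0.45 ± 0.13 (SE), and Sdha, the flavoprotein of succinate dehydrogenase, at -0.44 ± 0.11 (SE) (edgeR adjusted p = 0.00675, 0.0255, 0.0333 and 0.017). All 4 calls were lost in at least 1 fit that left out a library, at adjusted p of up to 0.173 for Mdh1. Suclg1, the alpha subunit of succinyl-CoA ligase, was the 1 cycle gene called higher, at 116 and 131 CPM in vehicle libraries, 152 and 187 CPM after 2 h and 171 and 176 CPM after 12 h. All 4 treated libraries were above vehicle, and the 12 h change was 1.40-fold (edgeR, log2FC of 0.49 ± 0.13 (SE), adjusted p = 0.0236). Its call was lost with total counts in place of TMM, at an adjusted p of 0.0852, and without any of the vehicle or 12 h libraries, at adjusted p of 0.0519 to 0.142. Cs, citrate synthase, which opens the cycle, was at 342 and 399.9 CPM in vehicle libraries, 367 and 402 CPM after 2 h and 316 and 344 CPM after 12 h, and Mdh2, the mitochondrial malate dehydrogenase, at 172 and 236 CPM in vehicle libraries, 244 and 308 CPM after 2 h and 211 and 209 CPM after 12 h. Neither was called, nor were Idh3a, Ogdh, Dlst, Sucla2 and Sdhb, whose 12 h log2FC lay between -0.25 and -0.07.

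Counts per kb of exon allow isozymes of 1 step to be compared with each other. Hk2 made up 11.9% and 10.3% with vehicle, 52.3% and 41.1% at 2 h and 57.7% and 53.7% at 12 h of the summed hexokinase level per kb of Hk1 and Hk2. The mean share was 11.1 ± 1.14% (SD, n = 2) with vehicle, 46.7 ± 7.92% at 2 h and 55.7 ± 2.85% at 12 h, and the vehicle libraries were apart from the rest. Pfkp made up 1.72% and 2.10% with vehicle, 1.65% and 2.24% at 2 h and 9.13% and 7.93% at 12 h of the phosphofructokinase level, the 12 h libraries being apart from all others. Pfkm, the leading isozyme with vehicle, made up 56.3% and 64.7% with vehicle, 55.9% and 58.7% at 2 h and 43.3% and 47.2% at 12 h, and Pfkl 42.0% and 33.2% with vehicle, 42.4% and 39.0% at 2 h and 47.5% and 44.9% at 12 h. The PDK family kept its order, with Pdk1 at 60.6% to 74.6% in all libraries, and Pdk4 made up 0.274% to 1.58% before 12 h and 3.09% and 3.77% there. Of the sum of Eno1 and Eno2 per kb, Eno2 made up 59.4% and 51.5% with vehicle and 32.4% and 34.3% at 12 h, although most of the Eno1 transcript cannot be read uniquely. Eno3, the muscle enolase, and Eno1b, a copy of Eno1, are outside the 40 genes and not in this sum. They were at 21.0 and 17.1 CPM per kb with vehicle, beside 2.36 for Eno2 and 1.96 for Eno1, and reads that Eno1 shares with its copies are not counted. The lowest share of any library was 97.9% for Aldoa, 99.6% for Ldha and 99.9% for Slc16a1 in their families. No test was run on these shares. The smallest p that an exact two-sided permutation test of 2 against 2 libraries can give is 0.333. The shares depend on the length used. When counts were divided by the longest transcript, the mean share of Hk2 was 6.36%, 32.4% and 40.6% with vehicle, at 2 h and at 12 h. That of Eno2 was then 44.2% with vehicle, below Eno1 at 55.8%, and 24.1% at 12 h.

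**Figure D3:**
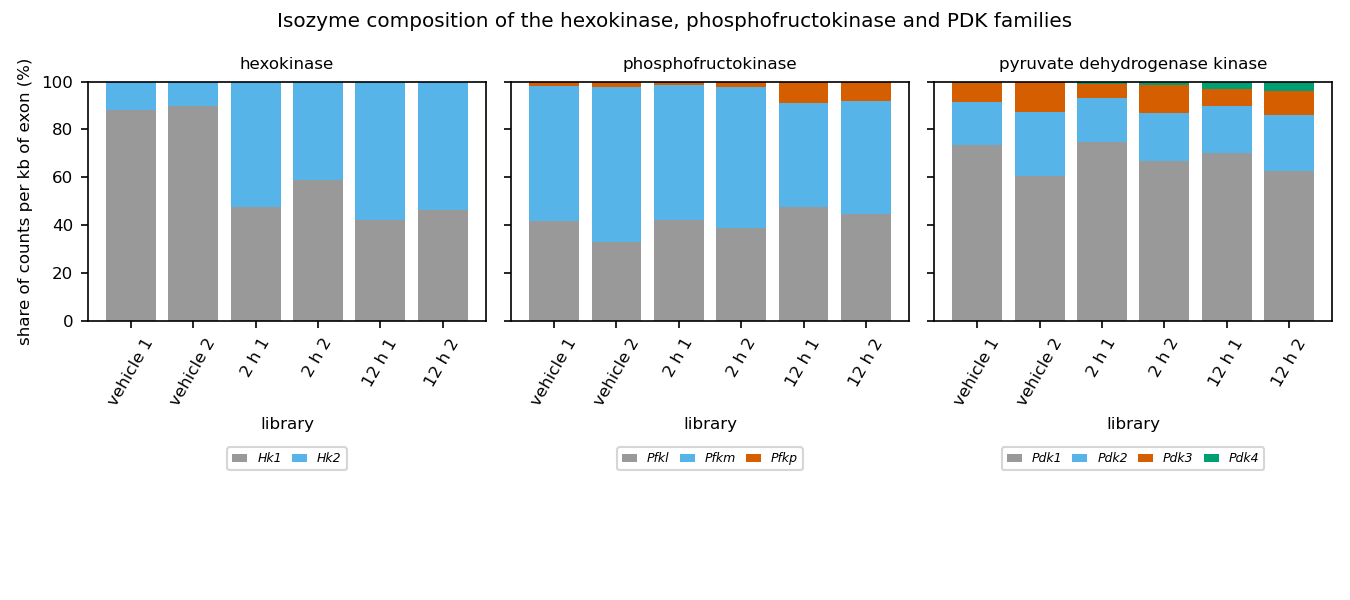
Share of each isozyme in the summed counts per kb of exon of its family (stacked bars to 100%) in each of the 6 libraries, for hexokinase, phosphofructokinase and PDK. Hk2 is at 10.3% and 11.9% with vehicle and at 41.1% to 57.7% in the treated libraries, and Pfkp is at 7.93% and 9.13% at 12 h, above its other libraries.

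The contrast of 12 h with 2 h of TGFβ1 also sets a longer time without serum and insulin against a shorter one. Of the 37 tested members 20 were lower at 12 h than at 2 h (18.9% of all genes) and 1, Pfkp, was higher (15.2% of all genes), with a median log2FC of -0.63 beside 0.01 over all genes. The contrast shares its 12 h libraries with the contrast to vehicle, so that the counts are not separate evidence. Aldoc (-1.72), Pfkm (-1.43), Eno2 (-1.26), Pgk1 (-1.21) and Pdk1 (-1.03) had a log2FC below -1 (9.87% of all genes), and Pfkp had one of 1.02 ± 0.24 (SE) (edgeR adjusted p = 0.0183), where 4.5% of all genes were past 1. Hk1 and Sdhb were called lower in this contrast but not against vehicle, and Pdk3 and Pdha1 against vehicle but not here. These contrasts differ by the change from vehicle to 2 h, which was called for none of these genes. Eno1 was called lower here too with the replicate number as a block, DESeq2, the 2 groups alone or without either vehicle library, at adjusted p of 0.00343 to 0.0412. Pdk3 was with that block, at 0.00578, and without 2 h replicate 1, at 0.0175. Pdha1 was with that block, DESeq2 or total counts, at 0.0205 to 0.0380, Ogdh with that block or DESeq2, at 0.0260 and 0.0431, and Mdh2 with that block, at 0.0275. The call of Hk1 was lost without 2 h replicate 2 or either 12 h library, at adjusted p of 0.124 to 0.209. That of Sdhb was lost with total counts, at 0.0515, in the fit of the 2 groups alone, at 0.0701, and without any library but 2 h replicate 1, at up to 0.197. Without 2 h replicate 2 its log2FC was -0.25. The 3 genes that rose at 2 h were not called between 12 h and 2 h, with 12 h against 2 h differences of -0.01 ± 0.14 (SE) for Hk2, 0.06 ± 0.16 (SE) for Pfkfb3 and -0.10 ± 0.09 (SE) for Slc2a1 on the log2 scale (edgeR adjusted p = 0.964, 0.81 and 0.43), and the sign for Hk2 and Pfkfb3 changed with the fit. Without 12 h replicate 1, and likewise without 12 h replicate 2, 11 members were lower and none higher, beside 9.09% and 9.77% of all genes lower and 5.5% and 5.34% higher. Leaving out 12 h replicate 1 took the adjusted p to 0.0758 for Pgk1, 0.0806 for Eno2 and 0.0945 for Pfkp. Leaving out 12 h replicate 2 took it to 0.0685 for Pdk1 and 0.101 for Pfkp.

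How well a member could be measured differed with its copies in the genome. The authors kept reads of 50 bases that mapped to 1 place only, and many glycolytic genes have processed pseudogenes, which are near-identical copies of the spliced transcript. The share of 50-base windows of the longest coding transcript that occur once in the mm9 genome was 7.09% for Pgk1, 8.14% for Pgam1, 14.4% for Gapdh and 27.6% for Eno1. It was 57.9% for Pkm, 63.9% for Pdhb, 65.5% for Ldhb, 67.5% for Gpi1, 70.1% for Ldha, 75.7% for Tpi1 and 83.9% for Aldoa, and 94.3% or more for the other 29 members. Gapdh, at chr6:125111871-125116485, had 117 other places in the genome that shared at least 50 windows with it, and its 35 to 74 counts per library correspond to 1.81 CPM per kb with vehicle, beside 276 for Tpi1 and 1285 for Pkm. Whether the low shares set the levels and changes of Pgk1, Pgam1, Gapdh and Eno1 was not tested. Eno1b, a copy of Eno1 counted as a gene of its own, was at 24.8 and 35.3 CPM in vehicle libraries, 35.6 and 48.9 CPM after 2 h and 25.3 and 25.8 CPM after 12 h.

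**Figure D4:**
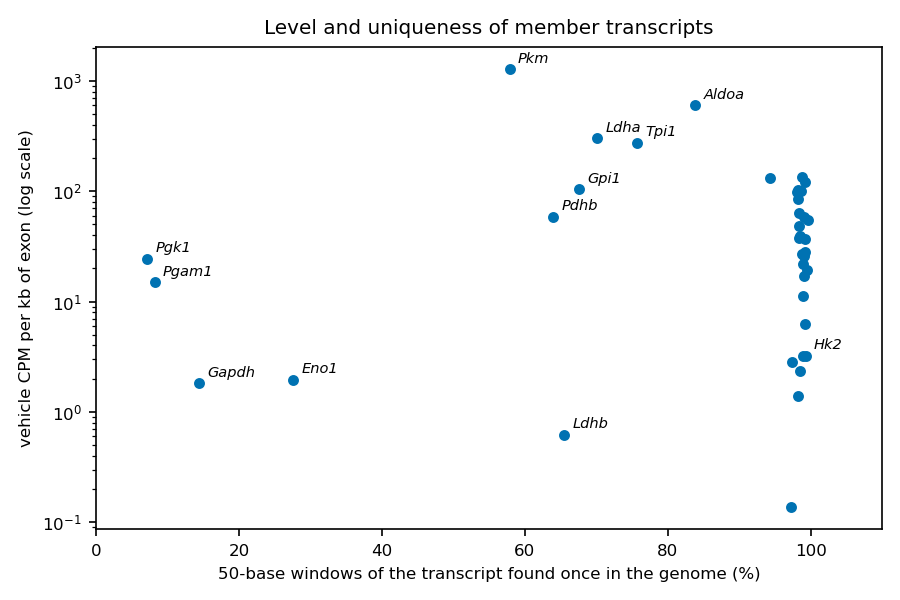
Mean vehicle level of each member in CPM per kb of exon (log scale) against the percentage of 50-base windows of its longest coding transcript that occur once in the genome, with a point per gene. Pgk1, Pgam1, Gapdh and Eno1 lie at 27.6% or less on the horizontal axis and Pkm is the highest point, and Slc16a3, at 0 counts with vehicle, is not drawn.

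Per kb of exon the highest members with vehicle were Pkm at 1285, Aldoa at 599, Ldha at 303 and Tpi1 at 276 CPM per kb. Of the cycle list the highest were Idh2 at 134, Cs at 131 and Mdh1 at 122 CPM per kb. Those with the largest rises started low, Hk2 at 3.23, Pfkp at 3.22 and Pfkfb3 at 1.40 CPM per kb. The genes lie at chr6:82675019-82724448 (Hk2), chr13:6579014-6648023 (Pfkp), chr2:11393057-11423728 (Pfkfb3), chr4:118781316-118809935 (Slc2a1) and chr6:124710071-124719691 (Eno2) in mm9. The deposited counts are described as made after duplicate reads were removed, yet they reached 32.2 reads per exonic base for Pkm, with 11 members above 1 in every library, where a single read per start position would give at most 1 from each strand. How many duplicates the counts hold was not tested.

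Another 70 genes of these and adjoining pathways were listed beside the members. Of 30 other glycolysis genes 16 were tested, and at 12 h 7 were lower and 4 higher, beside 21.5% and 21.8% of all genes. Slc2a2, the glucose transporter of liver and beta cells, had a log2FC of -2.97 ± 0.36 (SE) at 12 h (edgeR adjusted p = 0.000975). Bpgm, which makes 2,3-bisphosphoglycerate, rose at both times and was at 34.3 and 37.4 CPM in vehicle libraries, 60.5 and 69.9 CPM after 2 h and 128 and 138 CPM after 12 h. At 2 h it was the 1 gene of the list called higher, where 9.91% of all genes were (edgeR, log2FC of 0.86 ± 0.12 (SE), adjusted p = 0.00502). Tigar, a fructose bisphosphatase, and Pfkfb2, another maker of fructose 2,6-bisphosphate, were lower, where 5.25% of all genes were. Their log2FC were -0.79 ± 0.18 (SE) and -0.53 ± 0.10 (SE) (edgeR adjusted p = 0.0298 and 0.0201). These calls were lost without vehicle replicate 1, at adjusted p of 0.0505 for Bpgm, 0.105 for Tigar and 0.109 for Pfkfb2. Those of Tigar and Pfkfb2 were also lost without vehicle replicate 2, at 0.133 and 0.0988, without 12 h replicate 2, at 0.0807 and 0.0503, and in the fit of the 2 groups alone, at 0.0842 and 0.0516. Tigar was lost without 12 h replicate 1 too, at 0.0808, and Pfkfb2 without 2 h replicate 2, at 0.0539.

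Of 10 other PDH and pyruvate transport genes, all tested, 4 were lower and 1 higher at 12 h, beside 21.5% and 21.8% of all genes. Pcx, pyruvate carboxylase, fell by 1.60 on the log2 scale, Mpc2, a subunit of the mitochondrial pyruvate carrier, by 0.80, and Lipt1, which attaches lipoate, rose by 1.24 (edgeR adjusted p = 0.000164, 0.00562 and 0.00225). At 2 h Pdp1 and Pdp2, the phosphatases that reverse the action of PDKs, were lower, where 5.25% of all genes were. Their log2FC were -0.77 ± 0.15 (SE) and -0.72 ± 0.13 (SE) (edgeR adjusted p = 0.0208 and 0.0156). The call of Pdp1 was lost without vehicle replicate 1, 2 h replicate 2 or either 12 h library and in the fit of the 2 groups alone, at adjusted p of 0.0552 to 0.121. That of Pdp2 was lost without either vehicle library, at 0.106 and 0.0549. That of Mpc2 was lost without 12 h replicate 2, at an adjusted p of 0.0574. The list of 15 other cycle genes also holds cytosolic isozymes, malic enzymes and assembly factors. Of its genes 14 were tested, and 6 were lower and none higher at 12 h, against the same shares of all genes. Idh1, the cytosolic isocitrate dehydrogenase, was at 1138 and 1049 CPM in vehicle libraries, 877 and 759.6 CPM after 2 h and 198 and 227 CPM after 12 h. Its 12 h libraries were 5.16-fold below vehicle (edgeR, log2FC of -2.37 ± 0.13 (SE), adjusted p = 6.03e-05), and the malic enzymes Me1 and Me2 had log2FC of -0.99 ± 0.13 (SE) and -1.01 ± 0.10 (SE) (edgeR adjusted p = 0.0012 and 0.000486).

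Of 7 gluconeogenesis genes 4 were tested and 3 were lower at 12 h, beside 21.5% of all genes, namely Fbp2, the muscle fructose bisphosphatase, with 74 and 55 counts with vehicle and 1 and 1 at 12 h, Pck2 and Slc37a4 (edgeR adjusted p = 0.000125, 0.0018 and 0.00268). Of the 8 pentose phosphate genes 3 were lower at 12 h, beside the same 21.5%. G6pdx, which opens that pathway, was at 90.8 and 135 CPM in vehicle libraries, 95.0 and 158 CPM after 2 h and 24.1 and 39.7 CPM after 12 h. The fall was 3.55-fold (edgeR, log2FC of -1.83 ± 0.35 (SE), adjusted p = 0.00591), and Pgd, its next oxidising enzyme, and Tkt, transketolase, had log2FC of -0.95 ± 0.16 (SE) and -0.92 ± 0.14 (SE) (edgeR adjusted p = 0.00394 and 0.00245). H6pd, which serves the same oxidising step in the endoplasmic reticulum, was the 1 gene of this list called at 2 h, and it was higher (edgeR, log2FC of 0.82 ± 0.14 (SE), adjusted p = 0.0112). Of all genes 9.91% were called higher there. Without vehicle replicate 2 the log2FC of H6pd was 0.69 and its call was lost.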

How the data were processed

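Total RNA of 6 NMuMG samples in 3 groups of 2 was sequenced as stranded single-end libraries. Per the study's methods and the submitters' processing notes, the authors aligned reads to mm9 with Subread, kept uniquely mapped reads, removed duplicates with SAMtools 0.1.19 and summed reads over gene exons with featureCounts. The deposited values are raw counts of 21240 genes, with no normalization. All columns were mapped to a labelled sample.

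Counts were tested with edgeR 4.0.16 in R 4.3.3, by a two-sided quasi-likelihood test with TMM factors in 1 fit of the 3 groups, for the 11080 genes that reached 2 CPM or more in 2 or more libraries. Benjamini-Hochberg adjustment ran over all genes tested, separately for each contrast, and a gene was called at an adjusted p under 0.05. The SE of a log2FC is its size divided by the square root of F. The depth of 14705886 to 23786993 counts and the spread between 2 libraries a group limit the precision, and p-values measure only the spread between these samples. The fit was tested on simulated data. limma 3.58.1 (voom), DESeq2 1.42.0, other scaling, other filters, a replicate block and fits without each library were alternatives.

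Gene structures came from GENCODE on NCBIM37, which is mm9, where all 40 members were found. Every member could be named. Values per library were given for the 6 called members with the largest absolute log2FC in each contrast and direction and for isozyme families. They were also given for Pkm, Gapdh, Dlat, Cs and Mdh2. Of each list of other pathway genes up to 3 called genes were named per contrast. The values of 1 gene that this rule would name are not reported here. The members and lists were chosen with earlier results of these data known.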

Additional observations from a re-analysis of the deposited data

Results flagged for a closer look

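The change against vehicle differed between 2 h and 12 h of TGFβ1 for 21 members. This was tested as the 12 h against 2 h contrast of edgeR's quasi-likelihood fit, in which the shared vehicle cancels. Vehicle was sampled at 2 h alone, so TGFβ and time cannot be told apart here. The differences in log2FC, 12 h minus 2 h, were negative for 20, beside 18.9% of all genes tested, and positive for 1, beside 15.2%. They were -1.72 for Aldoc, -1.43 for Pfkm, -1.26 for Eno2, -1.21 for Pgk1 and -1.03 for Pdk1. Ldha was at -0.95, Pfkl at -0.91, Pkm at -0.90, Tpi1 at -0.87, Pdhb at -0.81, Aldoa at -0.79, Pdk2 at -0.79 and Gpi1 at -0.77. Fh1 was at -0.72, Slc16a1 at -0.72, Idh2 at -0.71, Sdha at -0.63, Hk1 at -0.53, Mdh1 at -0.46 and Sdhb at -0.44. Slc16a1 was at -0.41 without 2 h replicate 1, with an adjusted p of 0.0509, and its call was also lost without 12 h replicate 1 or 2, at 0.122 and 0.168. Without 2 h replicate 2 Sdhb was at -0.25, with an adjusted p of 0.146, and Fh1 at -0.47, with one of 0.0387. Without 12 h replicate 1 the calls of Fh1, Idh2, Mdh1 and Pdk2 were lost, at adjusted p of 0.0857 to 0.209. Without 12 h replicate 2 those of the same 4 genes and Sdha were, at 0.0598 to 0.0910. That of Mdh1 was lost as well without 2 h replicate 2, at 0.125, without either vehicle library and in the fit of the 2 groups alone, at 0.0601 to 0.0632. The difference was positive for Pfkp alone, at 1.02. Groups of 2 libraries are too small to look for a library that stands apart from its group.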

How the results depend on the processing

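With the replicate number as a block 5 members were higher at 2 h in place of 3, beside 16.4% of all genes. With DESeq2 4 were, beside 11.7%. With that block, limma-voom, DESeq2 or total counts 1 was lower in place of 0, beside 5.53% to 12.7% of all genes. Leaving out each library gave 2 to 4 higher and 0 to 1 lower at 2 h, beside 4.49% to 11.3% and 1.14% to 8.61% of all genes. At 12 h it gave 3 to 5 higher and 13 to 21 lower, beside 11.6% to 24.5% and 13.5% to 25.2%. Against 2 h it gave 0 to 1 higher and 11 to 20 lower, beside 5.34% to 15.4% and 9.09% to 19.2%, where a lone library is assumed to vary like the other groups. Fewer libraries leave fewer degrees of freedom by construction. The cause of the other shifts was not tested. For the calls of single members, 387 of the fits that left out no single library kept the call and 5 lost it. Those fits include the ones of the 2 groups alone. Among fits without 1 library more calls were lost, with no change of direction in any fit. The 12 h against 2 h log2FC of Hk2 was 0.0013 with limma-voom, and without a library it ran from -0.18 to 0.19, and that of Pfkfb3 from -0.13 to 0.21. With the longest transcript as length, Hk2 shares were 6.36%, 32.4% and 40.6% with vehicle, at 2 h and at 12 h, Pfkp shares 3.84%, 3.89% and 15.9%, and Pfkm shares 53.7% at 2 h and 39.4% at 12 h. Total counts moved the median log2FC of all genes to -0.12 at 2 h and -0.11 at 12 h.

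The groups share replicate numbers, and the deviations of same-numbered libraries from their group means correlated over all genes tested. The correlation was 0.708 for vehicle and 2 h, 0.263 for vehicle and 12 h and 0.392 for 2 h and 12 h. Over the members tested it was 0.579, 0.466 and 0.490 in the same order. With 2 pairs the replicate numbers were not taken to pair the samples. With the block, 23 members were lower at 12 h, beside 27.5% of all genes, and 25 against 2 h, beside 25.2%, and 1813 genes were higher and 1409 lower at 2 h, where the fit without it called 1098 and 582. Ldhb, Slc16a3 and Pdk4 had 32 counts or fewer in every library, which limits the precision of their values, and stayed under the filter. Without the filter Pdk4 was called higher at 12 h, at an adjusted p of 0.0405.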
